A study of Mus musculus with 15 samples.

Results

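The RNA of 8 genes for acute-phase and secreted defence proteins was followed across 5 conditions of bone marrow-derived macrophages (BMDMs): *Saa3*, *Lcn2*, *Hp*, *Ptx3*, *Slpi*, *Lyz2*, *Lyz1* and *Camp*. They were taken by name from a table of 51763 genes, all 8 were found in it, and all 8 were among the 16919 genes that passed the filter on low counts. These genes and the wider lists below were chosen with earlier results of these data known. Their counts and medians beside those of all genes are therefore descriptive. Each of the 8 genes was compared over all 5 conditions with the 3 PBS libraries and again without PBS replicate 3.

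The BMDMs were grown with M-CSF from marrow of wild-type female C57BL/6NTac mice aged 8 to 10 weeks. Cells of 5 mice were pooled before seeding, so the 3 libraries of a condition are technical replicates, and errors and p values below reflect variation among cultures and libraries only, not among mice. All cells were rested overnight in low serum and then stimulated for 24 h. The control received PBS. frHMGB1 and dsHMGB1 are recombinant high mobility group box 1, a nuclear protein that acts as an alarm signal outside cells, in its fully reduced and its disulfide form, each at 5 µg/mL. LPS, the endotoxin of Gram-negative bacteria, was given at 1 µg/mL. The LPS/IFNγ cells received 20 ng/mL IFNγ with LPS, for which the treatment field gives 1 µg/mL and the protocol text and methods give 100 ng/mL, so a difference between LPS and LPS/IFNγ may also be one of LPS dose and the 2 cannot be told apart. The comparisons ask how the HMGB1 forms act on macrophages beside a bacterial signal and a classical inflammatory (M1) stimulus.

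Acute-phase proteins are secreted in large amounts during inflammation, mostly by the liver, but activated macrophages make several of them as well. Interleukin-6, interleukin-1 and TNF switch their genes on, through NF-κB, its partner IκBζ (*Nfkbiz*), STAT3 and the C/EBP factors. *Saa3* encodes the serum amyloid A made mainly outside the liver, and *Lcn2* encodes lipocalin 2, which withholds iron from bacteria by binding their siderophores. *Hp* encodes haptoglobin, which captures free haemoglobin, and *Ptx3* encodes a long pentraxin that coats microbes and binds complement C1q. *Slpi* encodes an inhibitor of neutrophil serine proteases. *Lyz2* and *Lyz1* encode lysozymes, which cut bacterial cell walls, with *Lyz2* the form of macrophages and *Lyz1* that of Paneth cells. *Camp* encodes the cathelicidin CRAMP, an antimicrobial peptide best known from neutrophil granules.

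Because the factors above can act near the start of a gene, promoter windows of GRCm38.p6 from RefSeq were searched, from 250 bases before to 50 bases after the start. A window was found for 7 of the 8 genes, all but *Hp*. The C/EBP letters TTGCNNAA were found, on either strand, in 5 of the 7 windows and in 10.8% of all 32851 promoters. The 4 shown are those of genes that rose with dsHMGB1, LPS and LPS/IFNγ and held these letters, written 5′ to 3′ on the strand of the gene from 250 bases before the start to the first 10 transcribed bases. Capitals mark the matches.
Saa3, chr7:46715667-46715926, minus strand: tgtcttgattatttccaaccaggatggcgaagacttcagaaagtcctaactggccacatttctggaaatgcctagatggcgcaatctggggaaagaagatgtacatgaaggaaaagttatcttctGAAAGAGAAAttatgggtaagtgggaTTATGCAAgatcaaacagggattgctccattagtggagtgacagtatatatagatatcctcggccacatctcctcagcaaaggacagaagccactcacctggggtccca
Lcn2, chr2:32387730-32387989, minus strand: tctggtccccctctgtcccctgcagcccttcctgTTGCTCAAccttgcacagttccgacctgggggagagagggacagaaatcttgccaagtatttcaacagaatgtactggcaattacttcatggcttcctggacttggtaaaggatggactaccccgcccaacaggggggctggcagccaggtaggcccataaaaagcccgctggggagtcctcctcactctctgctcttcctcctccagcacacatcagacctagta
Ptx3, chr3:66219637-66219896, plus strand: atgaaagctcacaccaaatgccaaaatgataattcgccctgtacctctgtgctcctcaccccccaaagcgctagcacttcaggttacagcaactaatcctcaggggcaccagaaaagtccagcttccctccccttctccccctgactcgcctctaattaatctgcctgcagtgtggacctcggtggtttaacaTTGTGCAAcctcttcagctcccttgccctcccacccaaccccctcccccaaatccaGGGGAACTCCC
Slpi, chr2:164356498-164356757, minus strand: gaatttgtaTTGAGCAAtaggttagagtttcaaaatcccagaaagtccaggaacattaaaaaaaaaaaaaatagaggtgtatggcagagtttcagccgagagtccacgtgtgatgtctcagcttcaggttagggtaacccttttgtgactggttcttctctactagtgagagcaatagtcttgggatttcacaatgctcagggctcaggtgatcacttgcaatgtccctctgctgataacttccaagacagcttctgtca

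In the *Saa3* window the first run in capitals is a match to the interferon-stimulated response element letters GAAANNGAAA, held by 3.44% of all promoters, and the second, 99 bases upstream of the start, is the C/EBP match. *Ptx3* has its C/EBP match 57 bases upstream, and the run in capitals at its start holds 2 overlapping matches to the NF-κB consensus. That consensus, searched by name on both strands, was in 2 of the 7 windows, those of *Ptx3* and *Camp*, and in 8.46% of all promoters. The fifth C/EBP match was in *Lyz1*. The letters TTCNNNGAA of the STAT-binding GAS element, present in 8.30% of promoters, and TATAAA, present in 13.6%, were in none of the 7. A match describes the letters and is not evidence of binding, and no match says only that the letters are not in this window.

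*Lyz1* and *Lyz2* lie next to each other on chromosome 10 and are so alike that reads can be hard to assign. Their coding sequences of 444 bases differ at 22. The first 120 coding bases are shown because they hold 11 of these differences, set in capitals.
Lyz1: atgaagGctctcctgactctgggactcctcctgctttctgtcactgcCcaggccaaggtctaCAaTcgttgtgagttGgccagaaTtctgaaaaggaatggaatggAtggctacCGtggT
Lyz2: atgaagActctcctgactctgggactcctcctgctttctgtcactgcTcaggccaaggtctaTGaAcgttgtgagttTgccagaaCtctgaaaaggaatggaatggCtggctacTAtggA

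Over the whole transcript, 16.1% of the 50-base stretches of *Lyz1* were also found in *Lyz2*, against 2.06% of the 100-base stretches. How the reads of such stretches were counted is not given in the sources used here.

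The libraries held 40934540 to 80925478 counts. The 7 macrophage markers apart from *Lyz2* all had counts in every condition and summed to 3909 to 7452 CPM (counts scaled to library size). PBS held the lowest sum and the widest range, 3909 to 6926, beside 6738 to 6935 with frHMGB1. Of 11 neutrophil markers apart from *Camp*, *Ly6g*, *S100a9*, *Mpo* and *Retnlg* were at 0 in all libraries. In each condition, 5 to 7 of the 11 had a count. Whether the read counting contributed to a 0, as for *S100a9* beside 2487 reads of *S100a8*, was not tested. *Csf3r* (condition means of 4271 to 7387 normalized counts), *S100a8* (86.9 to 309) and *Mmp8* (736 to 1078) were expressed, with LPS calling the first 2 higher than PBS and *Mmp8* lower, while *Cxcr2*, *Ltf*, *Elane* and *Ngp* had 43, 29, 15 and 2 reads in all. PBS replicate 3 stood apart, with a Pearson r across genes of 0.934 and 0.939 to the other PBS libraries, where every other replicate pair had 0.987 to 0.993. Values below are normalized counts (DESeq2 size factors), fold changes are DESeq2's without shrinkage, and a gene was called higher or lower when edgeR's quasi-likelihood test gave it an adjusted p under 0.05, with adjustment over all tested genes. In bulk RNA, a change in the share of cells that express a gene and a change per cell cannot be told apart.

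dsHMGB1 called 6 of the 8 genes higher than PBS and 0 lower, while over all genes 23.3% were called higher and 24.2% lower. LPS called 5 higher and 1 lower, against 26.7% and 36.2% of all genes, and LPS/IFNγ called 4 higher and 2 lower, against 29% and 31.2%. frHMGB1 called 1 higher and 1 lower, against 1.31% and 5.69%. These 2 shares, here and for the wider lists below, cover coding and non-coding genes, 222 higher and 963 lower of 16919. Fitted over protein-coding genes only, frHMGB1 called 41 higher and 29 lower of 13025. In that fit *Lyz1* was still called lower, while *Lcn2* was not called (adjusted p = 0.0518). The median log2 fold change of the 8 was 2.66 with dsHMGB1, 2.81 with LPS, 1.21 with LPS/IFNγ and 0.31 with frHMGB1, beside −0.10, −0.21, −0.12 and −0.01 over all genes tested. The 4 comparisons share their PBS libraries. *Saa3*, *Lcn2*, *Ptx3* and *Slpi* were called higher with dsHMGB1, LPS and LPS/IFNγ alike. Of 8 fibroblast markers, all had counts in every condition and 7 were tested. LPS and LPS/IFNγ each called 6 of these 7 higher than PBS and 0 lower, and dsHMGB1 called 2 higher, *Dcn* (log2 fold change 1.29) and *Pdgfrb* (2.88), while frHMGB1 called 0. *Col1a1* had mean normalized counts of 4655 with PBS and 7818 with LPS/IFNγ. In CPM the 8 markers summed to 151 to 364 with PBS, 310 to 319 with frHMGB1, 258 to 323 with dsHMGB1, 282 to 297 with LPS and 285 to 290 with LPS/IFNγ. Their part in the rise of the 4 genes was not tested.

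**Figure D1:**
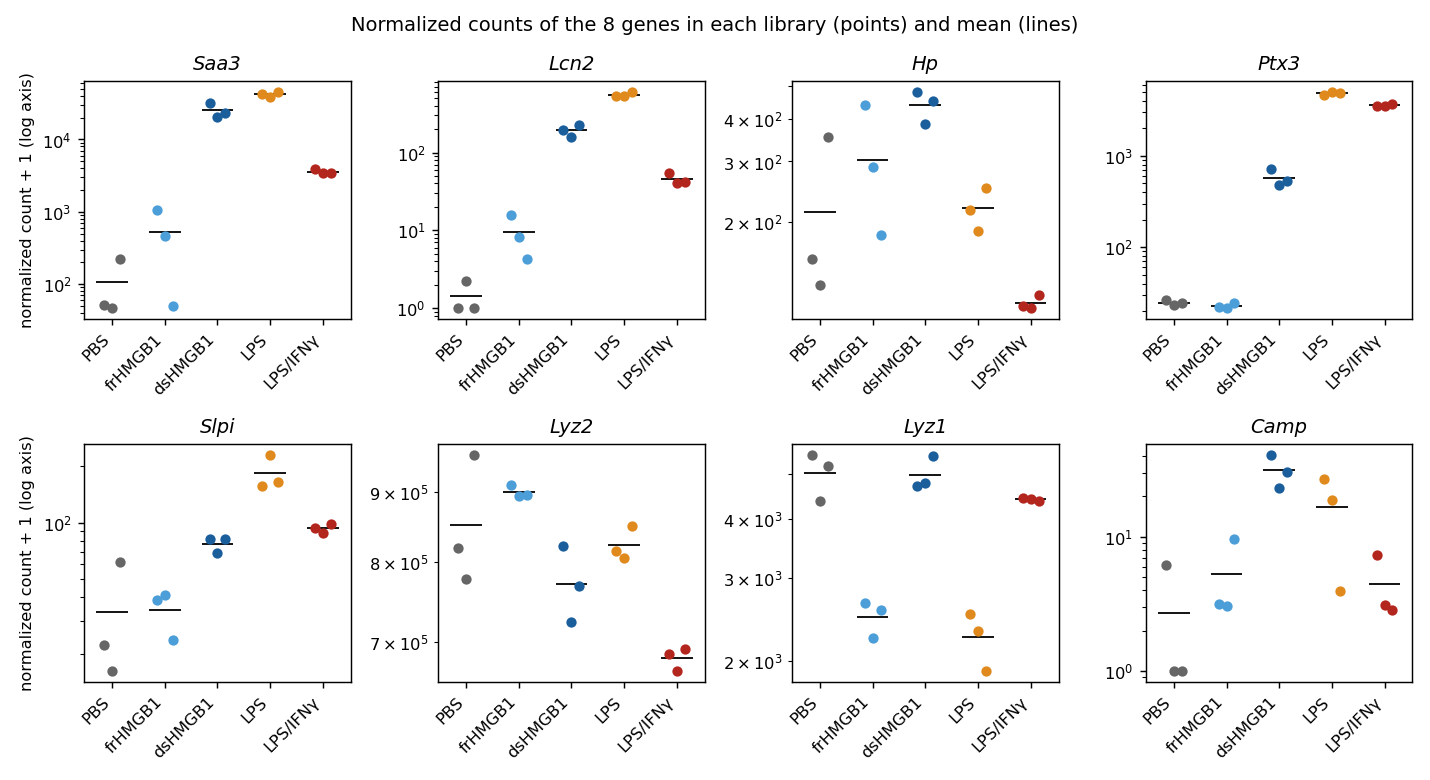
Normalized count plus 1 on a log axis for each of the 8 genes (panels, each with its own range) in the 3 libraries (points) of each of the 5 conditions, with the condition mean as a line. *Saa3*, *Lcn2* and *Ptx3* span the widest ranges, PBS replicate 3 (right-hand grey point) is the highest PBS library for *Saa3*, *Hp*, *Slpi* and *Lyz2*, and *Lyz1* is low in frHMGB1 and LPS.

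Leaving out PBS replicate 3 raised the number called with frHMGB1 to 4 higher and 1 lower, when 8.41% and 9.09% of all genes were called. With dsHMGB1 there were still 6 higher and 0 lower (29.8% and 29% of all genes), with LPS 5 and 1 (32.9% and 38.3%), and with LPS/IFNγ 4 and 1 (33.3% and 34.4%). The PBS level of *Saa3*, *Hp* and *Slpi* was set in large part by this library: their PBS means of 105, 212 and 32.5 became 47.9, 142 and 18.2 over PBS replicates 1 and 2.

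*Saa3* (ENSMUSG00000040026, chr7:46711998-46715700) rose over PBS with dsHMGB1, LPS and LPS/IFNγ, and least of these with LPS/IFNγ. It had 50.4, 45.4 and 220.2 normalized counts in the 3 PBS libraries, in the order of replicates 1 to 3. It had 32022, 20496 and 23246 in dsHMGB1 and 43177, 38752 and 45529 in LPS. In LPS/IFNγ it had 3853, 3408 and 3451. The 3 groups of stimulated libraries did not overlap with PBS or with each other, and LPS/IFNγ lay well below dsHMGB1 and LPS. Against PBS, *Saa3* was 241-fold higher with dsHMGB1 (log2 fold change 7.91 ± 0.72 SE, adjusted p = 1.28e-05), 405-fold with LPS (adjusted p = 4.47e-06) and 34.1-fold with LPS/IFNγ (adjusted p = 0.000139). Without PBS replicate 3 the log2 fold changes were 9.04, 9.78 and 6.21.

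With frHMGB1, *Saa3* had 1064, 461 and 49.6 normalized counts, so that the third library was at the level of PBS replicates 1 and 2 and the other two were above every PBS library. The log2 fold change was 2.32 ± 0.72 and was not called (adjusted p = 0.0890), but DESeq2's Wald test called it (adjusted p = 0.0151). It was also called without PBS replicate 3 (3.45, adjusted p = 0.00258) and without frHMGB1 replicate 3 (2.88, adjusted p = 0.00562). Without frHMGB1 replicate 1 it was 1.29 (adjusted p = 0.461), and adjusted p was 0.191 with the replicate number as a block, 0.336 over protein-coding genes only and 0.778 when only these 2 conditions were fitted. *Lcn2* and *Hp* had the same order of the 3 frHMGB1 libraries, replicate 1 highest and replicate 3 lowest.

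*Lcn2* (ENSMUSG00000026822, chr2:32384633-32388252) was all but silent in PBS and rose with every stimulation. The 3 PBS libraries had 0, 1.26 and 0 normalized counts, a total of 2 reads. In frHMGB1 it had 14.97, 7.15 and 3.24, and in LPS/IFNγ 53.0, 40.0 and 41.1. In dsHMGB1 it had 195, 158 and 225, and in LPS 531, 525 and 599.9. No 2 conditions overlapped, and each step of the order LPS, dsHMGB1, LPS/IFNγ, frHMGB1 and PBS was called. Taken from the pooled counts, the ratio to PBS was 16.8 with frHMGB1 (95% interval 4.18 to 147), 88.7 with LPS/IFNγ (24.1 to 740.3), 381 with dsHMGB1 (105 to 3148) and 1098 with LPS (303 to 9081). These intervals cover counting error only. The test gave adjusted p = 0.00570 for frHMGB1, which became 0.0518 when only protein-coding genes were fitted, and adjusted p between 3.19e-09 and 8.40e-07 for the others.

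*Hp* (ENSMUSG00000031722, chr8:109575128-109579172) was highest in dsHMGB1 and lowest in LPS/IFNγ. PBS had 155, 129 and 353 normalized counts, frHMGB1 438, 288 and 182, and dsHMGB1 479, 386 and 451. LPS had 216, 187 and 249.97, and LPS/IFNγ 112, 110.5 and 121. The dsHMGB1 libraries were above all PBS, LPS and LPS/IFNγ libraries and overlapped with frHMGB1, while the LPS/IFNγ libraries were below all others. Over PBS, *Hp* was 2.08-fold higher with dsHMGB1 (log2 fold change 1.06 ± 0.36, adjusted p = 0.0174) and fell by 0.88 ± 0.37 on the log2 scale with LPS/IFNγ (adjusted p = 0.0392). With LPS the log2 fold change was 0.04 (95% interval −0.67 to 0.76, adjusted p = 0.986).

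The calls of *Hp* against PBS depended on single libraries and on the fit. The rise with dsHMGB1 was not called without PBS replicate 1 (0.87, adjusted p = 0.0608) or 2 (0.80, adjusted p = 0.0582), and was 1.62 without PBS replicate 3. The fall with LPS/IFNγ was −0.32 without PBS replicate 3 (adjusted p = 0.199). It also missed the threshold without frHMGB1 replicate 2, without dsHMGB1 replicate 3 or without any single LPS/IFNγ library (log2 fold changes −0.92 to −0.86, adjusted p 0.0505 to 0.0905), with the replicate block (−0.83, adjusted p = 0.0541) and with no filter on low counts (adjusted p = 0.0642). When only the 2 conditions were fitted, adjusted p was 0.0820 with dsHMGB1 and 0.137 with LPS/IFNγ. With frHMGB1, *Hp* went from a log2 fold change of 0.52 that was not called (adjusted p = 0.446) to 1.10 without PBS replicate 3 (adjusted p = 0.00491).

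*Ptx3* (ENSMUSG00000027832, chr3:66219910-66225805) rose with dsHMGB1, LPS and LPS/IFNγ and was far higher in the last 2 of these than in dsHMGB1. It had 25.2, 22.1 and 23.4 normalized counts in PBS and 21.4, 20.4 and 23.7 in frHMGB1. It had 713, 477 and 533 in dsHMGB1, 4655, 5033 and 4918 in LPS, and 3499, 3536 and 3678 in LPS/IFNγ. PBS and frHMGB1 overlapped, and the other 3 conditions were apart from them and from each other. *Ptx3* was 24.3-fold higher than PBS with dsHMGB1 (log2 fold change 4.60 ± 0.21, adjusted p = 4.93e-11), 206-fold with LPS (adjusted p = 7.36e-13) and 151-fold with LPS/IFNγ (adjusted p = 8.72e-13). With frHMGB1 its log2 fold change was −0.11 (95% interval −0.66 to 0.43, adjusted p = 0.864). PBS replicate 3 did not stand out for this gene, and the dsHMGB1 change was again 4.60 without it. The gene lies within *Veph1* on the opposite strand, which had 2 counts in all libraries together.

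*Slpi* (ENSMUSG00000017002, chr2:164354070-164389095) rose with the same 3 stimulations but to a smaller extent. PBS had 21.3, 15.1 and 60.9 normalized counts and frHMGB1 37.4, 39.9 and 22.7. In dsHMGB1 it had 81.0, 67.5 and 80.7, in LPS 156, 230.2 and 165, and in LPS/IFNγ 92.3, 87.3 and 96.9. Every dsHMGB1, LPS and LPS/IFNγ library was above every PBS and frHMGB1 library. The rise over PBS was 2.45-fold with dsHMGB1 (log2 fold change 1.29 ± 0.40, adjusted p = 0.0134), 5.89-fold with LPS (adjusted p = 8.91e-05) and 2.95-fold with LPS/IFNγ (adjusted p = 0.00339). The dsHMGB1 call was lost without PBS replicate 1 (1.06, adjusted p = 0.0512). When only the 2 conditions were fitted, adjusted p was 0.112 with dsHMGB1 and 0.0507 with LPS/IFNγ. Without PBS replicate 3 the log2 fold changes were 2.06, 3.32 and 2.33.

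*Camp* (ENSMUSG00000038357, chr9:109847379-109849617) had few reads in every library and was highest in dsHMGB1. The libraries held 8, 0 and 0 reads in PBS and 2, 2 and 8 in frHMGB1. They held 45, 30 and 35 reads in dsHMGB1, 20, 12 and 2 in LPS, and 6, 2 and 2 in LPS/IFNγ. The dsHMGB1 libraries were above all PBS, frHMGB1 and LPS/IFNγ libraries, while LPS overlapped with every other condition. The ratio of pooled normalized counts to PBS was 14.9 with dsHMGB1 (95% interval 7.31 to 35.4) and 7.98 with LPS (3.63 to 20.0). These intervals too cover counting error only, and not the spread between the libraries. The tests gave adjusted p = 0.00508 and 0.0244. The LPS call was lost without PBS replicate 2 (adjusted p = 0.0691), LPS replicate 1 (adjusted p = 0.106) or LPS replicate 2 (adjusted p = 0.0530), and under total-count scaling (adjusted p = 0.0647). For LPS/IFNγ, adjusted p was 0.601 with all libraries and 0.0390 without PBS replicate 1, the one PBS library with reads. The summed level of the other neutrophil markers was 111 to 122 CPM in dsHMGB1, within the 72.8 to 152 CPM of PBS. In dsHMGB1, *Csf3r* had a mean of 5846 normalized counts and *Mmp8* of 838. The sum thus rests largely on genes expressed in all conditions and could miss a small change. Whether neutrophils had a part in the *Camp* rise was not tested.

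**Figure D2:**
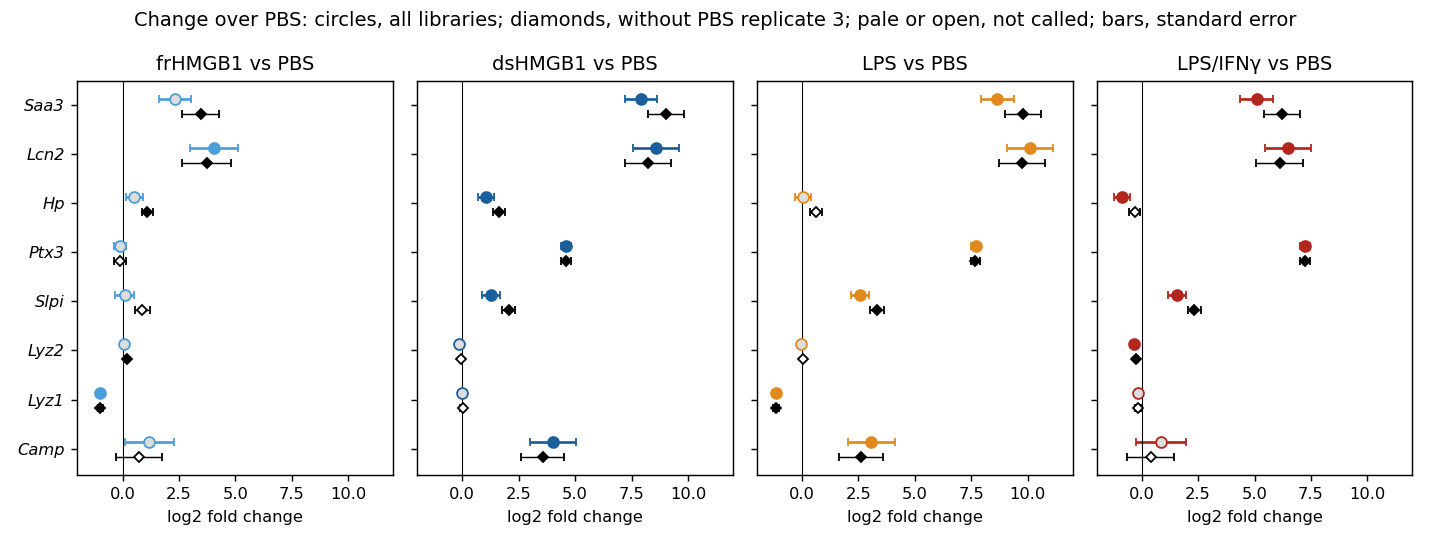
Log2 fold change over PBS of each gene (rows) for the 4 stimulations (panels), with all libraries (circles) and without PBS replicate 3 (diamonds), and bars of 1 standard error. Filled colour or black marks an adjusted p under 0.05, and pale or open marks stand for genes not called. Without PBS replicate 3, *Saa3*, *Hp* and *Slpi* shift to the right in every panel, for example *Saa3* with frHMGB1 from 2.32 to 3.45.

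*Lyz2* (ENSMUSG00000069516, chr10:117277331-117282321) was the most abundant of the 8, also per length of exon, and took 0.914% to 2.04% of all counts in a library. It had 819179, 778078 and 958671 normalized counts in PBS, 911547, 893833 and 895027 in frHMGB1, and 822330, 724340 and 768280 in dsHMGB1. LPS had 816060, 805656 and 850559 and LPS/IFNγ 685951, 666742 and 691347. The LPS/IFNγ libraries were below all others, and PBS overlapped with frHMGB1, dsHMGB1 and LPS. Against PBS, *Lyz2* fell by 0.32 ± 0.08 on the log2 scale with LPS/IFNγ (adjusted p = 0.00187, but 0.118 when only these 2 conditions were fitted), and no other stimulation was called. Its log2 fold change was −0.14 with dsHMGB1 (95% interval −0.31 to 0.02), −0.05 with LPS (−0.21 to 0.12) and 0.08 with frHMGB1 (−0.08 to 0.24), the last of which was called without PBS replicate 3 (0.18, adjusted p = 0.0346).

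The size of these changes depended on the scaling. Per count sequenced, *Lyz2* took 1.80% to 1.93% with PBS and 2.03% to 2.04% with frHMGB1, but 1.24% to 1.40% with dsHMGB1, 1.09% to 1.14% with LPS and 0.914% to 0.944% with LPS/IFNγ. When libraries were scaled by total counts alone, an alternative chosen after these shares had been seen, *Lyz2* was called lower than PBS with dsHMGB1 (edgeR log2 fold change −0.49, adjusted p = 0.000120), LPS (−0.73, adjusted p = 1.70e-06) and LPS/IFNγ (−0.99, adjusted p = 7.75e-08). This scaling moved the median of edgeR's log2 fold changes over all genes from −0.11 to −0.46 with dsHMGB1, from −0.27 to −0.89 with LPS and from −0.15 to −0.81 with LPS/IFNγ. Under this scaling as in the main fit, *Lyz2* lay below the median gene with dsHMGB1 and LPS/IFNγ and above it with LPS. In the main fit its log2 fold changes of −0.14, −0.32 and −0.05 stood beside medians of −0.10, −0.12 and −0.21. Total-count scaling split the 8 genes into 6 higher and 2 lower with dsHMGB1, 4 and 2 with LPS, and 4 and 3 with LPS/IFNγ. Over all genes, the share of calls that were higher fell from 49.0% to 28.1%, from 42.5% to 21.9% and from 48.2% to 25.3%.

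*Lyz1* (ENSMUSG00000069515, chr10:117287797-117292868) was lower in frHMGB1 and LPS than in the other 3 conditions. It had 5492, 4377 and 5187 normalized counts in PBS, 4718, 4776 and 5444 in dsHMGB1 and 4436, 4426 and 4376 in LPS/IFNγ. It had 2656, 2229 and 2559 in frHMGB1 and 2507, 2316 and 1899.8 in LPS. The last 6 libraries lay below the other 9. Against PBS, *Lyz1* fell by 1.02 ± 0.13 on the log2 scale with frHMGB1 (adjusted p = 0.000183) and by 1.16 ± 0.13 with LPS (adjusted p = 1.40e-06). The log2 fold change was −0.01 with dsHMGB1 (95% interval −0.26 to 0.24) and −0.19 with LPS/IFNγ (−0.44 to 0.07). Neither was called, but under total-count scaling both were (−0.37, adjusted p = 0.0320, and −0.87, adjusted p = 6.86e-05).

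Some features of the libraries moved with *Lyz1*. *Lyz1* made up 0.249% to 0.291% of the joint *Lyz1* and *Lyz2* counts with frHMGB1 and 0.223% to 0.306% with LPS. This share was 0.538% to 0.666% with PBS, 0.570% to 0.704% with dsHMGB1 and 0.629% to 0.659% with LPS/IFNγ. Processed pseudogenes, genomic copies of spliced mRNAs, took 0.540% to 0.560% of all counts with frHMGB1 and 0.481% to 0.487% with LPS, against 0.684% to 1.49% in the other 9 libraries. frHMGB1 and LPS also had fewer total counts than dsHMGB1 and LPS/IFNγ, at most 56128646 against at least 65905281, but PBS replicate 3, with 45497806, had fewer than any LPS library and a *Lyz1* share of 0.538%. The genes whose log2 levels followed *Lyz1* most closely over the 15 libraries were *Aldoart1*, a retrogene of aldolase A (Pearson r = 0.965), and the mitochondrial *mt-Co2* and *mt-Atp6* (both 0.931). *Aldoart1* had mean normalized counts of 284, 355 and 260.3 in PBS, dsHMGB1 and LPS/IFNγ and of 25.3 and 23.7 in frHMGB1 and LPS. *mt-Co2* had means of 1581, 1569 and 1509 against 91.2 and 135. The pseudogene share, *Aldoart1* and *mt-Co2* set frHMGB1 and LPS apart from PBS, dsHMGB1 and LPS/IFNγ in all comparisons across these sets. The part of these features in the *Lyz1* calls, here and in the comparisons below, and in the calls of other genes was not tested.

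**Figure D3:**
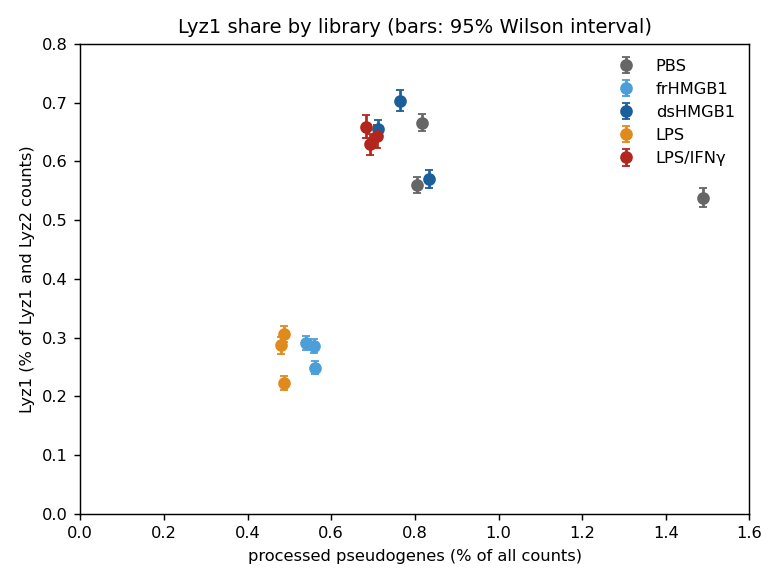
Share of *Lyz1* in the counts of *Lyz1* and *Lyz2* (vertical, percent, with 95% Wilson intervals for counting error) against the share of processed pseudogenes in all counts (horizontal, percent), 1 point per library. The 6 frHMGB1 and LPS libraries lie at 0.223% to 0.306% on the vertical axis and at most 0.560% on the horizontal axis, and all other libraries lie above both.

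The 2 forms of HMGB1 differ in the redox state of their cysteines and were given at the same dose. By the methods, frHMGB1 was made in buffers with the reductant DTT, while dsHMGB1 came from another laboratory and was made without DTT. Redox form, source and preparation therefore cannot be told apart. dsHMGB1 called 6 of the 8 genes higher than frHMGB1 and 1 lower, against 27.7% and 23.1% of all genes. *Saa3* was 48.1-fold higher (adjusted p = 0.000108), *Lcn2* 22.8-fold (adjusted p = 6.06e-07) and *Ptx3* 26.3-fold (adjusted p = 6.54e-11). *Slpi* was 2.29-fold higher (adjusted p = 0.0230), *Camp* 7.16-fold (adjusted p = 0.0221) and *Lyz1* 2.01-fold (adjusted p = 1.84e-05), while *Lyz2* fell by 0.22 on the log2 scale (adjusted p = 0.0177). Every library of dsHMGB1 lay on the called side of every frHMGB1 library for these 7 genes. How often this holds over all genes was not counted. *Hp* was not called (log2 fold change 0.53, 95% interval −0.18 to 1.24), and its libraries overlapped.

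The calls of *Slpi*, *Camp* and *Lyz2* rested on single libraries. The *Slpi* call was lost without frHMGB1 replicate 3 or dsHMGB1 replicate 1 or 3 (log2 fold changes 0.97 to 1.15, adjusted p 0.0554 to 0.0916), the *Camp* call without frHMGB1 replicate 1 or 2 or dsHMGB1 replicate 1 (2.50 to 2.60, adjusted p 0.0655 to 0.0846), and the *Lyz2* call without frHMGB1 replicate 1 or dsHMGB1 replicate 2 or 3 (−0.23 to −0.18, adjusted p 0.0508 to 0.0728). With all libraries kept, the *Lyz2* call was also lost under RLE normalization (adjusted p = 0.0525), with no filter on low counts (adjusted p = 0.439) and over protein-coding genes only (adjusted p = 0.0991). *Hp* was called without PBS replicate 3, a library outside the comparison that enters the shared estimate of spread (0.53, adjusted p = 0.0387). Under total-count scaling the split was 5 higher and 1 lower, while the share of all calls that were higher moved from 54.6% to 34.5%.

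LPS and LPS/IFNγ were set against frHMGB1 for the order of the levels. LPS called 4 of the 8 higher and 1 lower, against 25.5% and 28% of all genes, and LPS/IFNγ called 5 higher and 2 lower, against 33.8% and 30.4%. *Saa3*, *Lcn2*, *Ptx3* and *Slpi* were higher in both. The gene called lower with LPS was *Lyz2* (log2 fold change −0.13, adjusted p = 0.0396), and this call was lost under the Wald test (adjusted p = 0.190), RLE normalization (adjusted p = 0.252), no filter (adjusted p = 0.863) and protein-coding genes only (adjusted p = 0.105), and in 11 of the 15 fits that left out 1 library (adjusted p 0.0530 to 0.189). The log2 fold change of *Lyz1* was −0.15 between LPS and frHMGB1 (adjusted p = 0.138).

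dsHMGB1 and LPS, which share the receptor complex of TLR4, differed in 5 of the 8 genes. dsHMGB1 called 2 higher and 3 lower than LPS, against 15.8% and 10.6% of all genes. *Hp* was 2.02-fold higher with dsHMGB1 (adjusted p = 0.0323) and *Lyz1* 2.22-fold higher (adjusted p = 1.20e-05). *Ptx3* was 8.49-fold lower (adjusted p = 1.96e-08), *Lcn2* 2.87-fold lower (adjusted p = 0.00282) and *Slpi* 2.41-fold lower (adjusted p = 0.0265). *Saa3* had a log2 fold change of −0.75 (95% interval −2.15 to 0.65, adjusted p = 0.528). All 3 dsHMGB1 libraries were below all 3 LPS libraries for it, and it was called when only these 2 conditions were fitted (−0.72, adjusted p = 0.00166). *Camp* was not called (0.96, adjusted p = 0.428), and *Lyz2* differed by −0.09 (adjusted p = 0.760) but by 0.24 in the other direction under total-count scaling (adjusted p = 0.0282).

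The *Hp* difference was lost without any single dsHMGB1, LPS or LPS/IFNγ library (log2 fold changes 0.91 to 1.12, adjusted p 0.0504 to 0.126). That of *Slpi* was lost without any single dsHMGB1 library or LPS replicate 2 (−1.31 to −1.08, adjusted p 0.0581 to 0.0951). With *Lyz2* the split under total-count scaling was 3 higher and 3 lower, as the share of all calls that were higher moved from 59.9% to 84.0%.

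Against LPS/IFNγ, dsHMGB1 called 4 of the 8 higher and 1 lower, beside 16.5% and 16.7% of all genes. *Saa3* was 7.07-fold higher (adjusted p = 0.00943), *Lcn2* 4.31-fold (adjusted p = 0.000201), *Hp* 3.83-fold (adjusted p = 0.000638) and *Camp* 8.95-fold (adjusted p = 0.0197). *Ptx3* was 6.23-fold lower (adjusted p = 7.77e-09). *Slpi* had a log2 fold change of −0.27 (95% interval −1.03 to 0.49), *Lyz2* of 0.18 (0.02 to 0.34) and *Lyz1* of 0.17 (−0.08 to 0.43), none of them called. The *Camp* call was lost without dsHMGB1 replicate 1 or LPS/IFNγ replicate 2 or 3 (2.85 to 2.92, adjusted p 0.0604 to 0.0839), and *Lyz2* was called without PBS replicate 3 (0.19, adjusted p = 0.000674). Total-count scaling gave 6 higher and 1 lower, with *Lyz2* and *Lyz1* added, and moved the share of all calls that were higher from 49.8% to 74.3%.

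LPS/IFNγ called 1 of the 8 higher and 4 lower than LPS alone, against 16.3% and 9.36% of all genes. *Saa3* was 11.9-fold lower (adjusted p = 0.00385) and *Lcn2* 12.4-fold lower (adjusted p = 4.68e-06). *Ptx3* was lower by a far smaller factor, 1.36-fold (adjusted p = 0.0283), and *Lyz2* 1.21-fold (adjusted p = 0.0399), while *Lyz1* was 1.97-fold higher (adjusted p = 4.17e-05). *Hp* had a log2 fold change of −0.93 (adjusted p = 0.0780), *Slpi* of −0.99 (adjusted p = 0.0743) and *Camp* of −2.20 (adjusted p = 0.137), and all 3 were called when PBS replicate 3, which is outside the comparison but enters the shared estimate of spread, was left out (adjusted p 0.00313, 0.000768 and 0.0439). *Slpi* was also called without PBS replicate 2 (adjusted p = 0.0354). *Ptx3* was not called without LPS replicate 2 or LPS/IFNγ replicate 1 or 2 (adjusted p 0.0518 to 0.0565) or with no filter on low counts (adjusted p = 0.0551). *Lyz2* was not called without any single frHMGB1 library, dsHMGB1 replicate 3, LPS replicate 3 or LPS/IFNγ replicate 2 (adjusted p 0.0539 to 0.0601), nor with no filter (adjusted p = 0.103), over protein-coding genes only (adjusted p = 0.126) or with the replicate block (adjusted p = 0.0525).

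**Figure D4:**
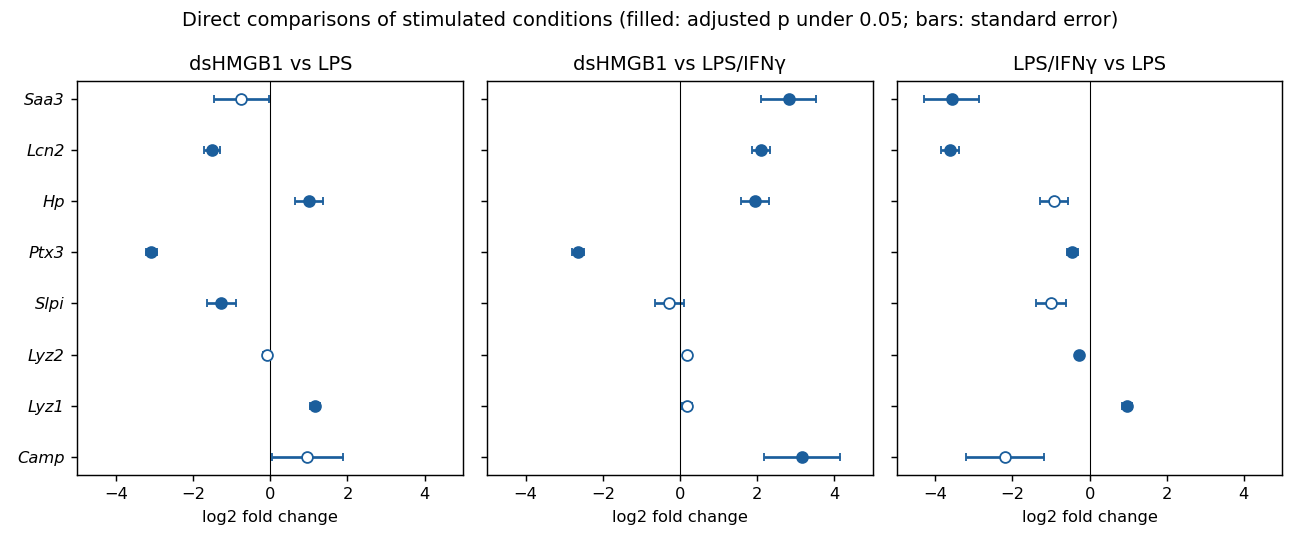
Log2 fold change of each gene (rows) between stimulated conditions (panels: dsHMGB1 against LPS, dsHMGB1 against LPS/IFNγ and LPS/IFNγ against LPS), with bars of 1 standard error and filled points for an adjusted p under 0.05. *Ptx3* lies far to the left in both dsHMGB1 panels (−3.09 and −2.64), and *Saa3* and *Lcn2* lie far to the left in the LPS/IFNγ panel (−3.57 and −3.63).

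The order of the conditions thus differed from gene to gene. *Saa3* and *Lcn2* were highest in LPS, then dsHMGB1, then LPS/IFNγ, and the first step was not called for *Saa3*. *Ptx3* was highest in LPS, then LPS/IFNγ, then dsHMGB1. *Slpi* had the order LPS, LPS/IFNγ and dsHMGB1, and no step between these neighbours was called. *Hp* had dsHMGB1 first, and no step was called down to PBS, after which LPS/IFNγ was lower. *Camp* had dsHMGB1 first and *Lyz2* frHMGB1 first, and neither had a called step between neighbours. *Lyz1* had PBS, dsHMGB1 and LPS/IFNγ above frHMGB1 and LPS, with no called step within either set.

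Per kilobase of exon, *Lyz2* held 96.8% of the summed level of the 8 genes in LPS, 97.6% in dsHMGB1, 98.8% in LPS/IFNγ, 99.4% in PBS and 99.7% in frHMGB1. On this scale *Saa3* had the next largest share in LPS (2.52% ± 0.14 SD, n = 3) and dsHMGB1 (1.602% ± 0.28), and in LPS/IFNγ it held 0.261% ± 0.017, near the 0.254% ± 0.006 of *Ptx3*. *Lyz1* held 0.667% in LPS/IFNγ, more than either.

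The genes with the levels most like each member were sought by Pearson r of log2(normalized count + 1) over the 15 libraries, among 10096 protein-coding genes, and describe these 5 conditions only. For *Saa3* they were *Cxcl3*, a neutrophil-attracting chemokine (r = 0.978), *Phgdh*, of serine synthesis (0.975), and *Cd302* (0.972). *Cxcl3* had mean normalized counts of 5.57 with PBS, 6.58 with frHMGB1, 2317 with dsHMGB1, 2323 with LPS and 152 with LPS/IFNγ. For *Ptx3* they were *Stard5*, *Ccng2* and *Sp140* (0.996 to 0.997). For *Hp* they were the chemokine *Ccl6* (0.953), *Tmem176b* (0.913) and *Nr1h3* (0.899), which encodes the oxysterol receptor LXRα. *Nr1h3* had means of 3361 with PBS, 4108 with frHMGB1, 7808 with dsHMGB1, 3264 with LPS and 1248 with LPS/IFNγ. For *Lcn2* they were *G3bp1*, *Gtpbp2* and *Orai2* (0.977 to 0.984), for *Slpi* *Ube2s*, *Lsg1* and *Ran* (0.973 to 0.981), for *Lyz2* *Ncaph2*, *Ssbp4* and *Atp5g2* (0.962 to 0.976), and for *Camp* *Krcc1*, *Gripap1* and *Agpat1* (0.849 to 0.882).

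Of 24 other acute-phase genes, 12 passed the filter on low counts, and *Saa4*, *Apcs*, *Fgg* and *Serpina1a*, which the liver makes, had 0 counts. Others of the 24 had reads. *Orm1*, *Orm2* and *Saa1* were called higher than PBS with dsHMGB1 and LPS, from low levels. *Orm1* had means of 3.45 with PBS, 40.2 with dsHMGB1 and 45.3 with LPS. *Hpx*, *Crp*, *Fgb* and *Fga* had 203, 12, 10 and 6 reads in all. dsHMGB1 called 9 of the 12 higher than PBS and 0 lower, LPS 10 and 1, LPS/IFNγ 8 and 0, and frHMGB1 0 and 0. Over all genes the shares were 23.3% and 24.2%, 26.7% and 36.2%, 29% and 31.2%, and 1.31% and 5.69% in the same order. The median log2 fold changes of the 12 were 4.03, 4.45, 3.79 and 0.15. Against LPS, dsHMGB1 called 0 higher and 5 lower, beside 15.8% and 10.6% of all genes. *Steap4*, a metalloreductase, had 0 counts in PBS and frHMGB1 and means of 143 ± 6.38 (SD) with dsHMGB1, 489 ± 149 with LPS and 720.4 ± 70.9 with LPS/IFNγ. *Serpina3f* and *Serpina3g*, serine protease inhibitors, were highest in LPS/IFNγ, unlike *Saa3* and *Lcn2*. *Serpina3f* had means of 2.13 with PBS, 5.61 with frHMGB1, 1650.2 with dsHMGB1, 4743 with LPS and 21619 with LPS/IFNγ, and its difference between LPS/IFNγ and LPS was called (log2 fold change 2.19, adjusted p = 4.88e-06). *Serpina3g* had means of 33.3, 25.3, 533, 1017 and 4848 in the same order.

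Of 28 other secreted defence genes, among them those of neutrophil granules, 6 passed the filter. dsHMGB1 called 2 higher and 1 lower than PBS, LPS 3 and 1, LPS/IFNγ 3 and 1, and frHMGB1 0 and 0. Over all genes, 23.3% were called higher and 24.2% lower with dsHMGB1, 26.7% and 36.2% with LPS, and 29% and 31.2% with LPS/IFNγ, and 6 genes are too few to set apart from these shares. *Nos2*, the inducible nitric oxide synthase and itself an intracellular enzyme, had means of 9.03 with PBS, 10.9 with frHMGB1, 14761 with dsHMGB1, 92088 with LPS and 229485 with LPS/IFNγ. *Cst7*, an inhibitor of cysteine proteases, had means of 18.8, 41.2, 1232, 2943 and 1669 in that order. *Ear2*, a ribonuclease, was called lower with dsHMGB1 (log2 fold change −0.96, adjusted p = 0.00409).

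Of 15 regulators of acute-phase genes, 14 passed the filter, and dsHMGB1 and LPS each called 11 higher and 3 lower than PBS. LPS/IFNγ called 10 higher and 2 lower, and frHMGB1 3 higher and 0 lower. Of all genes, dsHMGB1 called 23.3% higher and 24.2% lower, and LPS 26.7% and 36.2%. The shares were 29% and 31.2% with LPS/IFNγ and 1.31% and 5.69% with frHMGB1. The 3 called with frHMGB1 were *Tnf* (log2 fold change 1.46, adjusted p = 8.03e-07), *Il1b* (1.32, adjusted p = 0.000411) and *Nfkbiz* (1.36, adjusted p = 0.00198). *Il6* had means of 3.56 with PBS, 1.05 with frHMGB1, 4669 with dsHMGB1, 50888 with LPS and 23020.1 with LPS/IFNγ, so that dsHMGB1 was below LPS (log2 fold change −3.45, adjusted p = 8.42e-06). *Nfkbiz* had means of 327, 843, 21859, 55966 and 32826 in the same order. *Cebpd* had 506, 496, 8724, 11938 and 5935, and *Cebpb* 4735, 4551, 9922, 18102 and 6711. *Cebpb* and *Cebpd* were called lower in LPS/IFNγ than in LPS (log2 fold changes −1.43, adjusted p = 0.00515, and −1.01, adjusted p = 0.00565). *Cebpa* went the other way, with means of 18521, 18572, 2628, 705 and 684 in the same order, and was called lower than PBS with dsHMGB1 (log2 fold change −2.82), LPS (−4.72) and LPS/IFNγ (−4.76). Between LPS/IFNγ and LPS its log2 fold change was −0.04 (adjusted p = 0.970). *Il6ra* and *Il6st*, of the receptor for interleukin-6, also fell. *Il6ra* had means of 3942, 3832, 484, 264 and 210 in the same order. It was called lower with dsHMGB1 (log2 fold change −3.03), LPS (−3.90) and LPS/IFNγ (−4.23). *Il6st* was called lower with dsHMGB1 (−0.75, adjusted p = 0.0405) and LPS (−1.02, adjusted p = 0.00498) but not with LPS/IFNγ (−0.34). *Stat3* was higher in LPS/IFNγ than in LPS (0.67, adjusted p = 0.00295). *Cebpe*, a factor of neutrophil granule genes, did not pass the filter.

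Of 22 receptors and partners of the 8 proteins, 21 passed the filter. dsHMGB1 called 5 higher and 7 lower than PBS, LPS 7 and 6, LPS/IFNγ 8 and 8, and frHMGB1 3 and 0. The shares over all genes were 23.3% and 24.2%, 26.7% and 36.2%, 29% and 31.2%, and 1.31% and 5.69% in the same order, and the dsHMGB1 count of higher calls was near its share. The 3 called with frHMGB1 were the formyl peptide receptors *Fpr1* and *Fpr2*, the latter a receptor for serum amyloid A and cathelicidin, and *Tlr2*. *Fpr1* had means of 0.841 with PBS, 14.8 with frHMGB1, 948 with dsHMGB1, 824 with LPS and 118 with LPS/IFNγ, and *Fpr2* of 3.64, 16.1, 2637, 3647 and 1785. *Tlr2* had means of 3012, 5034, 48753, 60246 and 16687. *Cd163*, the scavenger receptor for haptoglobin bound to haemoglobin, was called lower with dsHMGB1, LPS and LPS/IFNγ. *Slc22a17*, a lipocalin 2 receptor, was called lower with dsHMGB1 and LPS/IFNγ.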

How the data were processed

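Stranded mRNA libraries of 15 BMDM samples, 3 per condition, were sequenced in paired-end mode. The authors aligned reads to GRCm38 with STAR and deposited whole-number counts per Ensembl gene, without normalization. The counting program is not given in the sources used here. The table has 0 columns without a sample. Symbols and positions came from GENCODE M21, which held 51661 of 51763 identifiers, and promoters from RefSeq. Genes passed edgeR's filterByExpr (roughly 10 counts per library in 1 condition and 15 overall). Calls come from edgeR 4.0.16 and its quasi-likelihood F test (TMM, all 15 libraries in one fit, no covariates, Benjamini-Hochberg adjusted p under 0.05). Normalized counts, log2 fold changes and standard errors come from DESeq2 1.42.0 in R 4.3.3. Tested on simulated counts for dsHMGB1 against PBS (16424 genes), the fit called 61% of 2-fold and 94% of 4-fold changes. Only 200 genes above a floor of mean counts were changed, equally up and down, with otherwise the same composition in all libraries. The simulation therefore says nothing about low-count genes such as *Camp* or about the choice of scaling. Ratios with few counts carry 95% intervals. No pair of replicates agreed within sampling noise.

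Other settings tried were the Wald test of DESeq2, no filter, RLE normalization, a filter of 1 CPM in 3 libraries, protein-coding genes only, each pair of conditions alone, a replicate block, each library left out and, chosen after the data were seen, total-count scaling. The genes and the wider lists were chosen with earlier results of these data known. From each wider list the text gives the counts called and names the 3 genes with the largest called change in dsHMGB1 against PBS that average 100 normalized counts or more, and always *Cebpb*, *Cebpd*, *Cebpe*, *Nfkbiz*, *Stat3* and *Il6*. *Cebpa*, *Il6ra*, *Il6st*, the marker genes, *Cd163*, *Slc22a17*, *Saa4*, *Apcs*, *Fgg* and *Serpina1a* were named with their values known. So were *Orm1*, *Orm2*, *Saa1*, *Hpx*, *Crp*, *Fgb* and *Fga*. The 3 genes most like each of the 8 were taken by Pearson r.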

Additional observations from a re-analysis of the deposited data

How the results depend on the processing

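The number of the 8 genes called moved by more than 1.5 times in these settings. With frHMGB1 against PBS it went from 2 to 1 when only protein-coding genes were fitted. It also went to 1 when only these conditions were fitted, where *Lcn2* did not pass the filter and was untested. With LPS/IFNγ against PBS it went from 6 to 3 when only these conditions were fitted, and with LPS/IFNγ against LPS from 5 to 3 with no filter on low counts. With 1 library left out at a time it ranged from 2 to 5 for frHMGB1 against PBS, where PBS replicate 3 gave the 5, from 3 to 5 for dsHMGB1 against LPS and from 3 to 8 for LPS/IFNγ against LPS. *Lyz2* in dsHMGB1 against LPS changed sign under total-count scaling, to 0.24. The other settings stayed within 1.5 times. The filter of 1 CPM left *Camp* untested, and fits of only 2 conditions also left out some tests. Of 1823 fits of a gene under an alternative, 1712 kept direction and side of the threshold. Replicate numbers did not pair the samples: deviations of same-numbered libraries correlated between −0.386 and 0.375 (median −0.00453, 30 pairs). With a replicate block, 6 genes were called for dsHMGB1 against PBS, 6 for LPS against PBS, 5 for LPS/IFNγ against PBS, 2 for frHMGB1 against PBS, 7 for dsHMGB1 against frHMGB1, 5 for dsHMGB1 against LPS, 5 for dsHMGB1 against LPS/IFNγ and 4 for LPS/IFNγ against LPS. The calls it ended were *Hp* in LPS/IFNγ against PBS and *Lyz2* in LPS/IFNγ against LPS. Depth limits *Camp* in all conditions and *Lcn2* in PBS, where 2 reads set every fold.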
